A study of Mus musculus with 6 samples.

Results

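Kinesins are motor proteins that use ATP to move along microtubules or to take them apart. Transcripts of 41 kinesin genes, those whose symbol is Kif or Kifc followed by a digit, were followed among the 18193 genes named by the arrays, in ipsilateral and contralateral retinal ganglion cells (RGCs). Of these, 14 are mitotic kinesins, which build the spindle, move chromosomes or finish cytokinesis. A further 12 are axonal transport kinesins, which carry vesicles, mitochondria and other cargo down the axon, and the remaining 15 belong to neither set. The members were taken from 104 probe sets of 45037 that are not controls, each annotated to a single kinesin symbol. Where a gene had several probe sets, the brightest by its mean over the 6 arrays stood for it. A probe set that names Kif27 together with another gene was left out.

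RGCs are the neurons that send axons from the retina to the brain. In each of 3 rounds, E16.5 embryos of the C57BL/6J strain (E16 in the sample names) had rhodamine dextran laid on the cut optic tract for 2 h, so that dye travelled back along axons into the retina on the same side (ipsilateral) or on the opposite side (contralateral). Retinas from 2 litters were pooled by side and dissociated, and rhodamine-positive cells that excluded DAPI were sorted, which gave 3 ipsilateral and 3 contralateral samples. All 6 samples share this strain, age, dye and sort, and no genotype or drug differs between them. The same amount of RNA from each side was amplified to cDNA within a round, and far fewer ipsilateral than contralateral cells were sorted. The rounds put on arrays were those with the strongest enrichment of Zic2, an ipsilateral RGC transcription factor, by PCR in ipsilateral cells, so they are not a random draw. Values are log2 intensities, and a difference is ipsilateral minus contralateral in log2 units throughout. In sorted pools, fewer cells of a type and less RNA per cell cannot be told apart.

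A neuron leaves the cell cycle before it grows an axon, so a differentiated RGC has no spindle to build. Mitotic kinesins are transcribed mainly late in the cell cycle, and many of their promoters carry a short element near the start of transcription, the cell cycle genes homology region (CHR). Transport kinesins are made throughout the life of a neuron, and RGCs, whose axons run the length of the optic nerve, depend on them. The comparison of the mitotic with the axonal set asked whether the ipsilateral and contralateral samples differ in the motors of division, in the motors of the axon, or in both.

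The mitotic kinesins were higher in ipsilateral RGCs, and the axonal transport kinesins were slightly lower. All 14 mitotic kinesins had a higher mean in ipsilateral RGCs, where 48.6% of all genes did, and their median difference was 0.82, against −0.0065 for all genes. Of the 12 axonal transport kinesins 11 had a lower mean, where 51.4% of all genes did, and their median difference was −0.28. No kinesin passed the call of 2-fold with an adjusted p under 0.05 (limma with Benjamini-Hochberg adjustment over 36029 probe sets), in a comparison that called 0.358% of tested genes higher and 0.0% lower. This fit did not pair the samples of a round. On simulated arrays it called 15% of log2 changes of 2, so a gene not called can still differ. The paper, with other software, lists Kif23 and Kif20b as higher in ipsilateral RGCs at the same thresholds. Of the 41 kinesins, 37 were bright enough to be tested, namely 11 mitotic, 12 axonal and 14 others. At an unadjusted p under 0.05 with 2-fold, 5 of the 11 tested mitotic kinesins were higher (2.47% of tested genes) and 0 of the 12 axonal and 0 of the 14 other tested kinesins differed in either direction (0.156% of tested genes were lower).

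**Figure D1:**
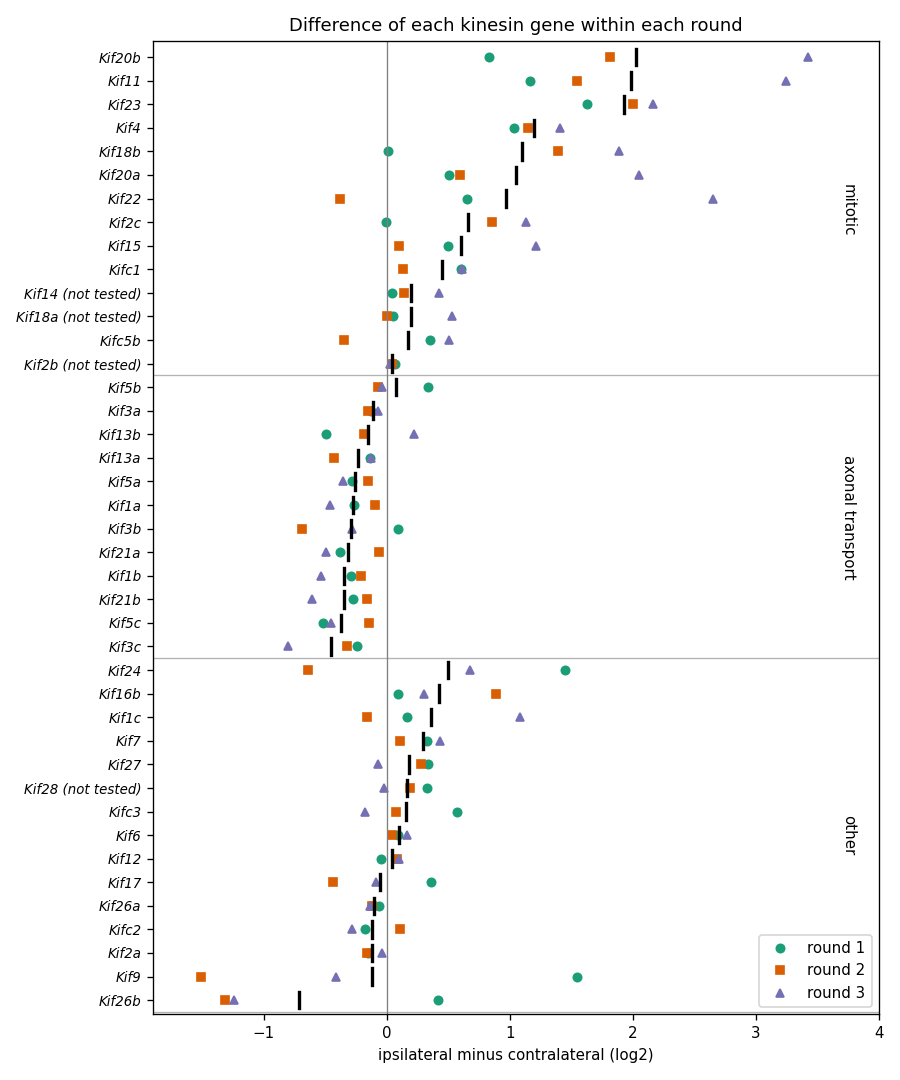
Ipsilateral minus contralateral (log2) for each of the 41 kinesin genes within rounds 1 to 3 (coloured markers), with the mean over rounds as a black bar. The means of the mitotic genes lie to the right of 0 and most of their markers are furthest right in round 3, while Kif22 and Kifc5b lie to the left in round 2. The axonal genes lie close to 0 and mostly to its left.

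The promoters of the strongest mitotic members are shown first, since they carry a feature that the arrays did not measure and the choice of members did not use. The stretches run from 100 bases before to 30 bases after the annotated start in RefSeq on GRCm38.p6, read on the strand of the gene. Capitals mark the CHR letters (TTTGAA, or TTCAAA on the other strand) and the CCAAT box (CCAAT, or ATTGG on the other strand). Kif23 lies at chr9:61946770-61946899 on the minus strand, Kif11 at chr19:37376282-37376411 on the plus strand, Kif20b at chr19:34922258-34922387 on the plus strand, Kif4 at chrX:100625965-100626094 on the plus strand, Kif22 at chr7:127042391-127042520 on the minus strand and Kif18b at chr11:102925095-102925224 on the minus strand.
Kif23: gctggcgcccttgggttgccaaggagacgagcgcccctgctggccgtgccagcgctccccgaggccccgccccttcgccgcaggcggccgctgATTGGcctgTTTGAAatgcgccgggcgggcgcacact
Kif11: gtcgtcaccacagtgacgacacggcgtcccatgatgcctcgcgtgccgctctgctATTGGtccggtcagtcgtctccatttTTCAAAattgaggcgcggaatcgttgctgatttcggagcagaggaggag
Kif20b: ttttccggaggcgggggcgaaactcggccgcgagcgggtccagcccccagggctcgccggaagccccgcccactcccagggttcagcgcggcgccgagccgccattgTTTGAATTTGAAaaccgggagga
Kif4: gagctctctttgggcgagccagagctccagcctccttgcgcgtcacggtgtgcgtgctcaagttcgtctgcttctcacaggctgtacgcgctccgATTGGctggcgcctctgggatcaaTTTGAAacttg
Kif22: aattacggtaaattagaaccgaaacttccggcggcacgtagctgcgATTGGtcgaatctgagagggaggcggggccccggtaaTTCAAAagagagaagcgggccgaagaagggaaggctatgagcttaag
Kif18b: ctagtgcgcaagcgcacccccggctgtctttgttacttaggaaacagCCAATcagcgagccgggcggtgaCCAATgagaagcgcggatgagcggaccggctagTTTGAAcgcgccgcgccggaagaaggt

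Each of these 6 stretches holds the CHR letters within 20 bases of the start. Counted to the leftmost letter, with +1 as the first transcribed base, they begin at +3 in Kif23, −19 in Kif11, +20 in Kif4, −17 in Kif22 and +4 in Kif18b, and at +8 and +14 as an adjoining pair in Kif20b. A CCAAT box stands upstream of the element in 5 of the 6, at −7 in Kif23, −45 in Kif11, −5 in Kif4, −54 in Kif22 and at −53 and −30 in Kif18b, and in none of the letters shown for Kif20b. For comparison, the same stretch is shown for the axonal kinesins Kif5c (chr2:49619186-49619315, plus strand) and Kif3c (chr12:3365032-3365161, plus strand), in which no letters matched.
Kif5c: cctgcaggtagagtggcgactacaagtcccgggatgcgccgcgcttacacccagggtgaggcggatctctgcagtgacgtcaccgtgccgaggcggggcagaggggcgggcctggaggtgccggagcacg
Kif3c: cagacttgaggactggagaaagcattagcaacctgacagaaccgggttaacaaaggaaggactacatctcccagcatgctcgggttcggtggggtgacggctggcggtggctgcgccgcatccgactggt

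Over the whole window of 250 bases before to 50 after the start, 11 of 13 mitotic kinesins with a RefSeq window held the CHR letters on either strand (84.6%), and 9 of 13 held a CCAAT box (69.2%). Of all genes with a window, 20.2% held the CHR letters and 41.1% a CCAAT box. Over the marker lists described below, a CCAAT box was in 14.3% (endothelial) to 70.6% (DNA replication), with 62.5% for pan-RGC markers. The CHR letters were in 11.1% (neurogenic precursors) to 28.6% (endothelial) of the genes of those lists. Among axonal kinesins 1 of 8 held the CHR letters (12.5%), which was Kif1a, at −44 in 1 of its windows, and 3 of 8 held a CCAAT box (37.5%). Among the other kinesins the CHR letters were in 2 of 12 (16.7%), Kif26b and Kif27. Kif20a, Kif5a, Kif5b, Kif13b, Kif21b, Kif28, Kifc2 and Kifc3 had no window in the table used here. The 2 mitotic kinesins without the CHR letters were Kif18a and Kif2b. Both were under the filter level on the arrays, as was Kif14, which held the letters at −228. A match of these letters is a description of sequence and not a site shown to be bound.

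Kif23, Kif20a and Kif20b act at the end of division, when the midzone between the separating chromosomes is bundled and the cell is divided. Kif23 is the motor of centralspindlin, the complex it forms with Racgap1. Its log2 levels were 8.54, 9.03 and 9.50 in ipsilateral RGCs of rounds 1, 2 and 3, and 6.92, 7.03 and 7.33 in contralateral RGCs. The ipsilateral values all lay above the contralateral ones, and the 3 rounds gave similar differences of 1.63, 2.00 and 2.16. The mean difference was 1.93 (SE 0.41, n = 3 per side), or 3.81-fold, with an adjusted p of 0.103 by limma. With the replicate number as a block, the adjusted p was 0.0412, which made Kif23 the only kinesin called in that fit (0.319% of tested genes were called higher and 0.0% lower). A dimmer probe set of Kif23 gave a larger difference of 2.60 (adjusted p = 0.0759 by limma, 0.121 with the block), and the dimmest of its 3 probe sets gave 0.30.

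Kif20b, which acts in the last steps of cytokinesis, had levels of 6.72, 7.42 and 8.98 in ipsilateral and 5.89, 5.60 and 5.56 in contralateral RGCs. The groups did not overlap, but the difference ran from 0.83 in round 1 to 3.42 in round 3. Its mean difference was 2.02 (SE 0.52, n = 3 per side; limma adjusted p = 0.290), and a second probe set gave 1.85 (adjusted p = 0.185). The dimmest of its 4 probe sets, both under the filter level and not tested, gave 0.41 and 0.036, and each was lower in ipsilateral RGCs in round 1. Kif20a, which brings the chromosomal passenger complex to the midzone, had levels of 8.26, 8.39 and 9.65 in ipsilateral and 7.75, 7.79 and 7.61 in contralateral RGCs. The contralateral samples were close together, below all ipsilateral samples, and the difference was 1.05 (SE 0.45; limma adjusted p = 1.0). By round it was 0.51, 0.60 and 2.05, and without replicate 3 on both sides the mean was 0.55. Kif14, which works with citron kinase in cytokinesis, was under the filter level on average and was not tested, with a difference of 0.20.

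Kif11 and Kif15 push the spindle poles apart. Kif11 had levels of 8.84, 7.67 and 10.02 in ipsilateral and 7.68, 6.13 and 6.77 in contralateral RGCs. The groups just overlapped, because the round 2 ipsilateral sample stood level with the round 1 contralateral sample, while within each round the ipsilateral sample was the higher, by 1.16, 1.54 and 3.24. The mean difference was 1.98 (SE 0.58; limma adjusted p = 0.478). Its other probe sets gave 1.67 and 0.98, and in both the groups did not overlap. Kif15, with a single probe set, gave 0.50, 0.10 and 1.22 in rounds 1, 2 and 3 (mean 0.60, SE 0.44). The minus-end motor Kifc1, which gathers spindle microtubules at the poles, gave 0.60, 0.13 and 0.61 (mean 0.45, SE 0.40). Its close relative Kifc5b gave 0.35, −0.35 and 0.51 (mean 0.17, SE 0.44), and since these genes are near copies of each other, their probe sets may not be told apart cleanly.

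Kif4 and Kif22 are chromokinesins, motors that ride on chromosome arms. Kif4 had levels of 6.74, 7.08 and 7.37 in ipsilateral and 5.70, 5.93 and 5.96 in contralateral RGCs. The groups did not overlap and the rounds were close, at 1.04, 1.15 and 1.41. The mean difference was 1.20 (SE 0.39; limma adjusted p = 0.735, and 0.0763 with the block). Kif22 had levels of 8.76, 8.15 and 10.62 in ipsilateral and 8.11, 8.53 and 7.97 in contralateral RGCs. Most of its mean of 0.97 (SE 0.56) came from 2.65 in round 3, and in round 2 the ipsilateral sample was the lower, by 0.38. Its other probe sets, at 1.04 and 1.27, were higher in ipsilateral RGCs in every round.

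The remaining mitotic members shorten or trim microtubule ends. Kif18b, which acts at the tips of astral microtubules, had levels of 5.56, 6.50 and 7.78 in ipsilateral and 5.55, 5.11 and 5.89 in contralateral RGCs, so that the sides were level in round 1 and differed by 1.89 in round 3. The mean difference was 2.14-fold (log2 SE 0.52; limma adjusted p = 1.0). The depolymerase Kif2c was level in round 1 and higher by 0.86 and 1.13 in rounds 2 and 3 (mean 0.66, SE 0.49). Kif18a and Kif2b were under the filter level and were not tested, with differences of 0.19 and 0.043.

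**Figure D2:**
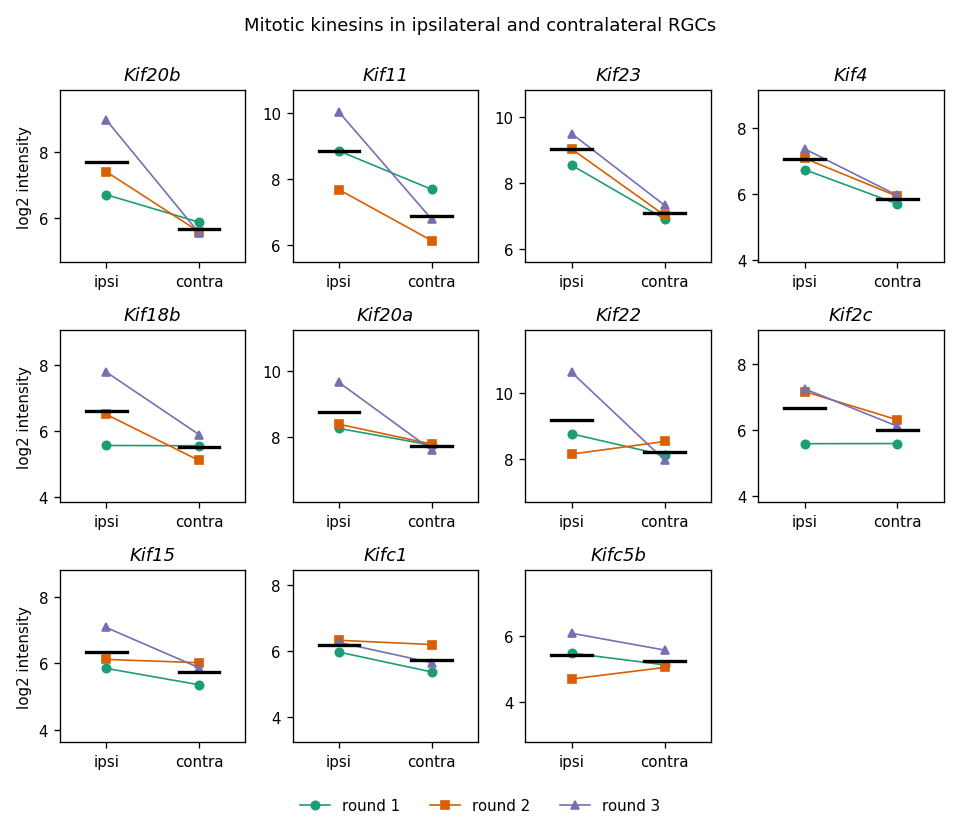
Log2 intensity of the 11 tested mitotic kinesins in ipsilateral (ipsi) and contralateral (contra) RGCs, with a line for each round and a black bar at each mean. Every panel spans the same range of log2 units. Kif23, Kif20b, Kif4 and Kif20a show no overlap between the sides, and the ipsilateral sample of round 3 is the highest of the 6 for most genes.

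Counted together, 10 of the 14 mitotic kinesins were higher in ipsilateral RGCs in all 3 rounds, against 17.1% of all genes, and 17.9% of genes with a mean between the filter level and log2 9, the range that holds the tested mitotic kinesins. Kif14 and Kif2b, under the filter level, are among the 10. None was lower in all 3. Of the 14, 6 differed by 2-fold or more (2.39% of all genes were this much higher and 0.198% this much lower). In 4, all ipsilateral samples lay above all contralateral ones (3.28% of all genes). In the fit with the replicate block, 8 of the 11 tested were higher at an unadjusted p under 0.05 (7.91% of tested genes). By round the median over the list was 0.50, 0.37 and 1.31 (rounds 1 to 3), and without replicate 3 on both sides it was 0.39.

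The count of calls among mitotic kinesins rested on the settings of the test. It was 1 of 11 with the block, 1 of 11 after a second quantile normalization (0.326% of tested genes called higher), 1 of 11 with an intensity trend and robust estimation (0.743%), 1 of 7 above a filter at the median (0.81%) and 3 of 11 with array weights (0.971%). Leaving out the ipsilateral sample of round 1 gave 2 calls (0.795% of tested genes), Kif23 and Kif20b, and leaving out that of round 2 gave 1 (0.508%), Kif11.

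The axonal transport kinesins had small differences, most of them negative. The heavy chains of conventional kinesin, Kif5a, Kif5b and Kif5c, haul vesicles and mitochondria. Kif5c, the neuronal chain, had levels of 11.22, 11.87 and 11.88 in ipsilateral and 11.74, 12.02 and 12.34 in contralateral RGCs, a difference of −0.37 (SE 0.40) that was negative in each round while the groups overlapped. Kif5a, also neuronal, differed by −0.26 (SE 0.39) and was lower in each round. Kif5b, which is made in most cell types, was the only axonal member with a higher mean. Its levels were 9.55, 10.01 and 10.10 in ipsilateral and 9.21, 10.08 and 10.14 in contralateral RGCs, and its difference of 0.073 (SE 0.42) came from round 1 alone. The sign was not stable, since it was −0.036 with array weights and −0.12 as the mean of all 6 of its probe sets.

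The Kif3 motors form heteromers that carry membrane cargo in axons and along cilia. Kif3c, the neuronal partner, had the largest difference of the axonal set. Its levels were 9.77, 10.18 and 10.00 in ipsilateral and 10.01, 10.51 and 10.81 in contralateral RGCs. Its difference of −0.46 (SE 0.40; limma adjusted p = 1.0) was made of −0.80 in round 3, and −0.24 and −0.32 in the others. On brightest probe sets, it was the only axonal kinesin with an unadjusted p under 0.05 in the blocked fit (limma adjusted p = 0.338). At that level 6.63% of tested genes were lower. Dimmer probe sets of Kif1b, Kif5a, Kif5b, Kif5c, Kif21a and Kif21b were lower at that level too, and a dimmer one of Kif13b was higher. Over all axonal probe sets no limma adjusted p was below 0.185 in that fit. Kif3a differed by −0.12 (SE 0.40) and Kif3b by −0.29 (SE 0.41), with Kif3b higher by 0.093 in round 1 and lower by 0.69 and 0.29 in rounds 2 and 3.

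Kif1a and Kif1b carry precursors of synaptic vesicles, and a form of Kif1b carries mitochondria. Their differences were −0.27 (SE 0.42) and −0.34 (SE 0.39), and both were lower in every round. Of 7 probe sets of Kif1b, 4 were lower and 3 were higher, between −0.62 and 0.48, so its probe sets did not read alike. Kif13a and Kif13b move endosomal and membrane vesicles. Kif13a gave −0.23 (SE 0.45), and Kif13b gave −0.15 (SE 0.41) with 3 of its 4 probe sets higher and only the brightest lower. Kif21a and Kif21b act in axons and dendrites and restrain microtubule growth, and gave −0.31 (SE 0.39) and −0.35 (SE 0.47), lower in every round.

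**Figure D3:**
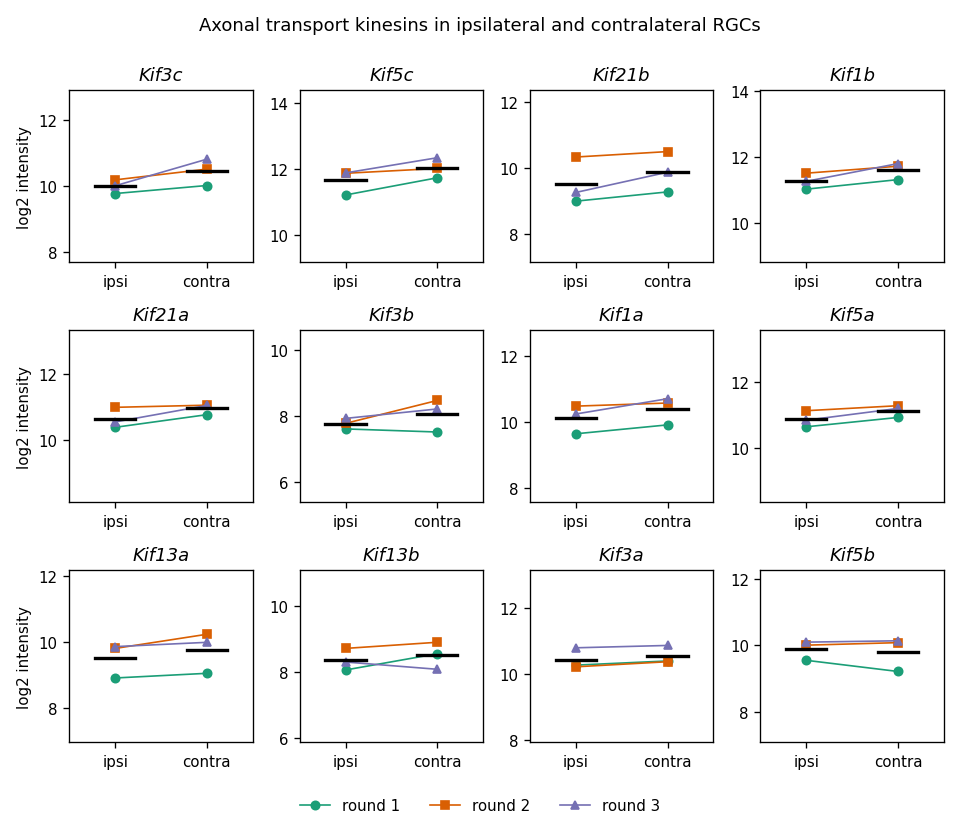
Log2 intensity of the 12 axonal transport kinesins, drawn as for the mitotic set and over the same span of log2 units. The lines of each round are near flat, the rounds lie further apart than the sides do for most genes, and the sides overlap for every gene.

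Of the 12 axonal kinesins 9 were lower in ipsilateral RGCs in all 3 rounds, where 18.7% of all genes were, and none was higher in all 3. Kif3b, Kif13b and Kif5b were the exceptions. Bright genes leaned the same way: of 2847 genes with a mean log2 signal of 9 or more, 33.7% were lower in all 3 rounds and 62.2% had a lower mean, with a median difference of −0.093. Of the axonal kinesins 10 were this bright, and 9 of those 10 were lower in all 3 rounds, with a median of −0.29. On their brightest probe sets none of the 12 reached 2-fold, none was free of overlap between the sides (1.68% of all genes had every ipsilateral sample below every contralateral one), and every limma adjusted p was 1.0. Their standard errors were 0.39 to 0.47, and 0.14 to 0.19 with the replicate block, where no limma adjusted p was below 0.338. Some dimmer probe sets of Kif1b, Kif21a and Kif5c did have every ipsilateral sample below every contralateral one.

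Within each round, the median of the mitotic set minus that of the axonal set was 0.78, 0.53 and 1.72, a mean of 1.01 ± 0.63 (SD, n = 3). This was positive in each round and widest in round 3, where the mitotic median was highest and the axonal median lowest. No test was made, since the sets were chosen with results known.

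Counting every probe set of a gene and not only the brightest left the directions as they were. All 27 mitotic probe sets had a higher mean in ipsilateral RGCs, 21 of them in every round, and their median was 0.87. Of 46 axonal probe sets 37 had a lower mean, 25 in every round, with a median of −0.23, and 2 were higher in every round. Among the 22 axonal probe sets with a mean of 9 or more, 21 were lower. Probe sets of a gene share its transcript and are not independent. In all, 91 of the 104 kinesin probe sets were tested, and 0 were called by limma (0.244% of all tested probe sets were called higher). By the unadjusted p under 0.05 with 2-fold, 9 were higher, all of them mitotic (2.05% of all tested probe sets).

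**Figure D4:**
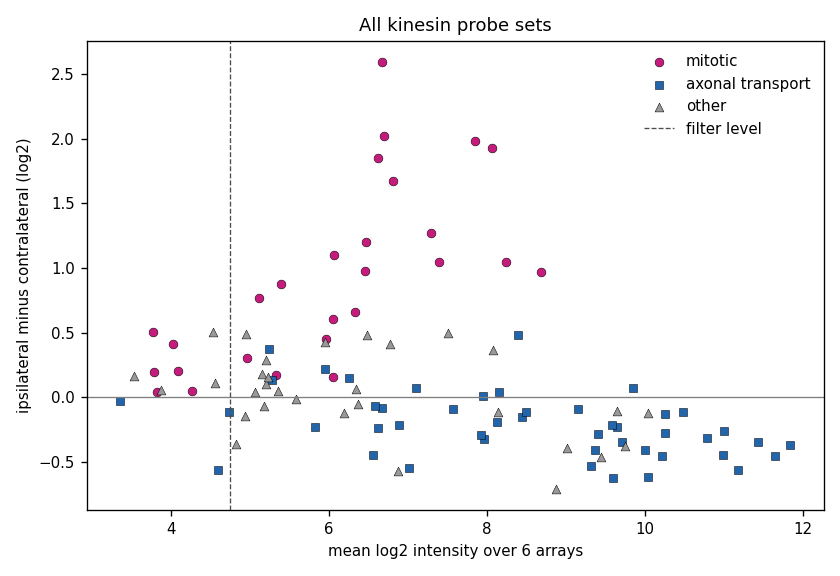
Ipsilateral minus contralateral (log2) against the mean log2 intensity over the 6 arrays for all 104 kinesin probe sets, with a dashed line at the filter level of 4.74. Mitotic probe sets (circles) all lie above 0 and reach 2.60, while axonal ones (squares) stay between −0.62 and 0.48.

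The other 15 kinesins went neither way as a set. Of them 9 had a higher and 6 a lower mean, 3 were higher and 2 lower in every round, and the median was 0.099. The largest difference was that of Kif26b, an atypical kinesin that acts in cell signaling and adhesion, at −0.71 (SE 0.44). It was lower by 1.31 and 1.24 in rounds 2 and 3 but higher by 0.42 in round 1. Kif24, which trims centriolar microtubules, gave 0.49 (SE 0.48) with rounds at 1.45, −0.64 and 0.68. The endosome motor Kif16b gave 0.43 (SE 0.54) and was higher in each round, and the vesicle motor Kif1c gave 0.36 (SE 0.44), of which 1.08 in round 3 made up the most.

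Kif7, which works in the primary cilium for Hedgehog signaling, was higher by 0.33, 0.11 and 0.44 (mean 0.29, SE 0.41), and its relative Kif27 differed by 0.18 (SE 0.53). Kif2a, a depolymerase that prunes axon branches and also serves the spindle, differed by −0.12 (SE 0.41), with rounds at −0.15, −0.16 and −0.040. Kif17, a motor of dendrites and cilia, differed by −0.055 (SE 0.43). Kif6, Kif9, Kif12, Kif26a, Kif28, Kifc2 and Kifc3 lay between −0.12 and 0.16, with Kif28 under the filter level. Within this narrow range Kif9, singled out after its values were seen, swung from 1.55 in round 1 to −1.51 in round 2.

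The partners of the mitotic motors, proteins of the spindle, kinetochore and midzone, were higher along with them. Of 25 partner genes on the arrays, 24 had a higher mean in ipsilateral RGCs, 19 in every round (17.1% of all genes), and 15 had all ipsilateral samples above all contralateral ones (3.28%). Their median difference was 1.13, with 0.82, 0.70 and 1.89 in rounds 1, 2 and 3. None was called, and 13 were higher by 2-fold at an unadjusted p under 0.05 by limma (2.47% of tested genes). Cenpe, itself a kinesin of the kinetochore whose symbol falls outside the naming rule, came closest. Its levels were 7.98, 7.71 and 9.55 in ipsilateral and 6.28, 5.78 and 5.37 in contralateral RGCs. The difference was 2.61 (SE 0.51; limma adjusted p = 0.0581, and 0.154 with the block), and the sides did not overlap. Next were the spindle proteins Nusap1 at 2.17 (SE 0.48; limma adjusted p = 0.134; −0.18 on its second probe set) and Tpx2 at 2.05 (SE 0.52; adjusted p = 0.268), and Ect2, which starts the cytokinetic furrow, at 1.93 (SE 0.46; adjusted p = 0.189). The sides did not overlap in any of the 3. The paper lists Cenpe, Nusap1 and Tpx2, but not Ect2, as higher in ipsilateral RGCs at the same thresholds with other software. Leaving out the ipsilateral sample of round 1 called 4 partners, leaving out that of round 2 called 1, and leaving out the contralateral sample of round 2 called 1 (0.476% of tested genes). The CHR letters stood in 13 of 22 partner promoters (59.1%).

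Genes that couple transport motors to cargo followed the axonal set. Of 18 adaptors and light chains, 16 had a lower mean in ipsilateral RGCs (51.4% of all genes, and 62.2% of those with a mean of 9 or more). Of these, 10 were lower in every round (18.7% and 33.7%), and the median was −0.24. On their brightest probe sets none was called by limma, nor did any reach 2-fold. The scaffold Mapk8ip2, which joins kinase signaling to conventional kinesin, had levels of 10.03, 9.71 and 9.92 in ipsilateral and 10.88, 10.33 and 10.50 in contralateral RGCs. All ipsilateral samples lay below the contralateral ones, and the difference was −0.68 (SE 0.39; limma adjusted p = 1.0). A dimmer one of its 5 probe sets gave −1.43 (SE 0.54, limma adjusted p = 1.0), with −2.10, −1.54 and −0.64 in rounds 1 to 3. This was the only 2-fold difference among all 42 adaptor probe sets. With other software, the paper lists this dimmer probe set as higher in contralateral RGCs at the same thresholds. Grip1, a receptor cargo adaptor, gave −0.65 (SE 0.46), Mapk8ip1 gave −0.45 (SE 0.50) and Fez1 gave −0.44 (SE 0.43), each lower in every round. The sign of Mapk8ip1 was not stable, since its second probe set gave 0.30.

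Dynein and its activator dynactin carry cargo back toward the cell body. Of 18 of their genes, 17 had a lower mean (51.4% of all genes, and 62.2% of those with a mean of 9 or more). Of these, 9 were lower in every round (18.7% and 33.7%), the median was −0.26 and none was called. Dctn1, the large dynactin subunit, gave −0.46 (SE 0.42), but −0.017 on its second probe set. The dynein regulator Ndel1 gave −0.43 (SE 0.46), of which −1.21 in round 2 made up nearly all, and Dync1li1 gave −0.41 (SE 0.43). The light chain Dynlt3 went the other way, by 0.41, 0.51 and 0.47 in rounds 1, 2 and 3 (mean 0.46, SE 0.42, or 0.14 with the block). It was the only gene of this list with a higher mean.

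Markers of progenitors and neurogenic precursors moved with the mitotic kinesins. Not all of them are confined to such cells. By in situ hybridization the paper reports transcripts of Sox2 and Atoh7 (Math5) in Zic2-positive RGCs as well as in progenitors or precursors. Without showing the data, it also reports Lhx2, another progenitor marker, in ipsilateral RGCs, weakly or for a shorter time in development. Retinal progenitor markers had a mean level of 8.83 to 9.85 over the ipsilateral samples and 7.48 to 7.64 over the contralateral ones. All 14 were higher, 13 in every round (17.1% of all genes), with a median of 1.83. Called were 4 (0.358% of tested genes were called higher), namely Zfp36l1 (2.83), Sox2 (2.68) and Sox9 (2.53), regulators of progenitor growth, and Sfrp2 (2.29). With the replicate block, 0 of these 14 were called. Of 20 genes of DNA replication, 19 were higher, 14 in every round (17.1% of all genes), with a median of 1.07 (8.12 to 9.58 in ipsilateral and 7.35 to 7.81 in contralateral samples). They were led by Rrm2 at 2.39, Mcm3 at 1.92 and Mcm4 at 1.88. None of the 20 was called here, while the paper lists Rrm2, Mcm3 and Mcm4 as higher. All 9 markers of neurogenic precursors were higher in every round (median 0.70), and Neurod4 (2.59) was called. The part of progenitor or precursor cells in the levels of the mitotic kinesins was not tested.

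Microglia, immune cells that also divide in the embryonic retina, were the most uneven list. Their 15 markers had a mean level of 8.01 to 8.77 in ipsilateral and 4.66 to 5.67 in contralateral samples, with a median difference of 3.35. Of the markers, 14 were higher in every round (17.1% of all genes) and 8 were called, or 7 with the block (0.358% of tested genes were called higher without it and 0.319% with it). Of the 15, 6 were under the filter level in contralateral RGCs, among them 4 of those called (Aif1, C1qb, C1qc and Csf1r), for which no size is given. The other called markers were Ctss (5.29), Laptm5 (4.61), Tyrobp (4.30) and P2ry12 (3.35), which was lost with the block. By round the microglial median was 4.35, 3.28 and 2.57, largest in round 1, whereas the mitotic median was largest in round 3, and the progenitor medians were 1.37, 1.76 and 2.58. The part of microglia was not tested either. Endothelial markers gave a median of −0.063 over 10 genes, at mean levels of 4.68 to 5.82 in ipsilateral and 4.70 to 5.67 in contralateral samples, with Kdr the largest at 1.02.

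Pan-RGC markers moved with the axonal kinesins. All 15 were lower in ipsilateral RGCs in all 3 rounds (18.7% of all genes, and 33.7% of those with a mean of 9 or more), with a median of −0.40 and none called. In 5 all ipsilateral samples lay below all contralateral ones (1.68% of all genes). Thy1 (−0.83), Nrn1 (−0.71) and the neurofilament Nefm (−0.50) differed most. Their mean level was high on every array, at 10.85 to 11.44 in ipsilateral and 11.24 to 11.77 in contralateral samples. None of the 15 had a mean under the filter level on either side. The round medians were −0.29, −0.26 and −0.53, near those of the axonal kinesins at −0.27, −0.16 and −0.41. The part of a lower share of RGC transcripts in the levels of the axonal kinesins was not tested.

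**Figure D5:**
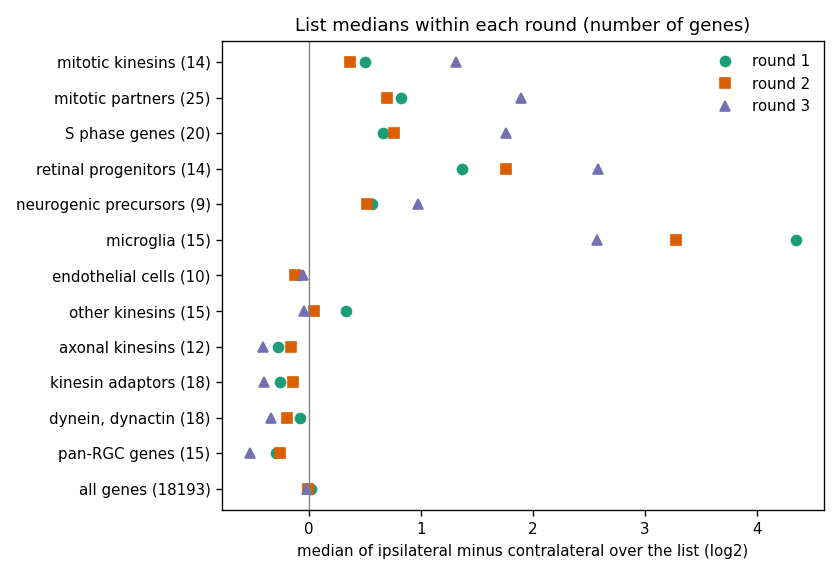
Median of ipsilateral minus contralateral (log2) over each gene list within rounds 1 to 3, with the number of genes in brackets. Mitotic kinesins, their partners, replication genes and progenitor markers lie to the right and are highest in round 3, axonal kinesins, adaptors, dynein genes and pan-RGC markers lie slightly to the left and are lowest in round 3, and microglial markers are highest in round 1.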

How the data were processed

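The authors deposited log2 intensities per probe set for 6 Affymetrix mouse genome arrays, produced by RMA (Affymetrix Expression Console 1.1), per the labels. RMA corrects background, normalizes arrays and summarizes probes, which compresses differences of dim probe sets. Whether the arrays were normalized together is not given in the sources used here. Array medians were 5.81, 6.70 and 6.33 for ipsilateral and 5.80, 6.65 and 6.26 for contralateral samples of rounds 1 to 3, so rounds differed more than sides. The array annotation tied 34945 probe sets to 1 gene and 932 to several, left 9160 without a name, and all 104 kinesin probe sets matched the RefSeq table by Entrez identifier. No count lies behind an intensity, and the number of arrays limits the precision.

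Of 45101 probe sets, 64 controls were left out and the 36029 with a mean at or above the 20th percentile (log2 4.74) were tested with limma 3.58.1 (lmFit, eBayes) in R 4.3.3, without a block, since the methods name no paired test. A call was 2-fold with a Benjamini-Hochberg adjusted p under 0.05. Fold is 2 to the power of the difference. The fit was tested first on simulated arrays, where it called 15% of log2 changes of 2 and 81% of those of 4. The ipsilateral and contralateral cells of a round were handled together, per the paper. After centring on the group means, arrays of the same number correlated at 0.566, 0.574 and 0.705, so the numbers pair the samples. Different numbers gave −0.403 to −0.219. Centring forces negative values there once the same numbers correlate positively, so these are not separate support. Each SE and adjusted p is from the fit without the block unless the block is named. That fit ignores the pairing, so its SEs also hold the spread between rounds. The median SE was 0.44 without and 0.17 with the block.

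The members, gene lists and tests were chosen with earlier results of these data known. All members of the mitotic and axonal lists are named, of other kinesins the 6 with the largest differences and Kif7, Kif2a and Kif17, of related lists those called and the 4 with the largest differences, and of marker lists at most 3 of the largest and those called. Promoters came from RefSeq (GRCm38.p6), and motifs were searched by exact letters on both strands. Alternatives were the replicate block, other filters, normalizations, variance models, fold thresholds and probe sets, and leaving out arrays.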

Additional observations from a re-analysis of the deposited data

How the results depend on the processing

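With the replicate block, 1 mitotic kinesin was called (Kif23), against 0 without it, and no axonal, other, partner, adaptor or dynein gene was called in either fit. Among the marker lists the block took the calls from 4 to 0 for progenitor and from 8 to 7 for microglial markers (P2ry12 was lost), and changed no call in the S-phase, precursor, endothelial and pan-RGC lists. Mitotic kinesins called numbered 1 above a filter at the 50th percentile, 1 after quantile normalization, 1 with trend and robust estimation, 3 with array weights and 5 at an unadjusted p, and from 0 to 2 when arrays were left out. Partners called numbered 2, 3, 6 and 13 above the 50th percentile, with trend and robust estimation, with array weights and at an unadjusted p, and from 0 to 4 when arrays were left out. Leaving out 1 array without a block mixes the level of a round into the difference.

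Kif23 passed with an adjusted p (limma) of 0.0412 with the block, 0.0302 above the 50th percentile, 0.0422 after quantile normalization, 0.0171 with trend and robust estimation, 0.00787 with array weights and 0.0187 without the ipsilateral array of round 1. The median of the mitotic kinesins was 1.36 over second brightest probe sets (6 genes) and 1.05 over the 11 members above the filter (a setting chosen after seeing the data), and ran from 0.39 (without the ipsilateral array of round 3) to 1.19 with arrays left out. That of the axonal set stayed negative, from −0.50 (without the contralateral array of round 1) to −0.12 (without the ipsilateral array of round 1), as did that of adaptors, from −0.47 (without ipsilateral round 2) to −0.065 (without ipsilateral round 1), and of dynein genes, from −0.46 (without contralateral round 1) to −0.10 (without ipsilateral round 1), and −0.077 over second brightest probe sets. That of partners ran from 0.64 (without round 3) to 1.35. The median of other kinesins was −0.11 above the 50th percentile and ran from −0.33 (without contralateral round 1) to 0.29 (without contralateral round 2).

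Signs turned for Kif5b (−0.036 with array weights, −0.095 for its second brightest probe set, −0.12 for the mean of probe sets), Kif13b (0.031, 0.15 and 0.13 in the same order) and, for second brightest probe sets, Kif17 (0.041), Nusap1 (−0.18), Mapk8ip1 (0.30) and Ndel1 (0.10). With arrays left out, signs also turned for Kifc5b (−0.16 to 0.53), Kif5b (−0.23 to 0.24), Kif3a (−0.30 to 0.043), Kif13a (−0.59 to 0.074), Kif13b (−0.37 to 0.042), Kif16b (−0.032 to 0.95), Kif1c (−0.041 to 0.62), Kif27 (−0.34 to 0.63), Kif2a (−0.34 to 0.12), Kif17 (−0.34 to 0.28) and Mapk8ip1 (−0.82 to 0.021). Of 753 values for single genes under alternatives, 698 kept direction and side of the threshold, 24 newly passed it and 31 turned sign. Causes were not tested.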
